A study of Mus musculus with 50 samples.

Results

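The Rab GTPases of hippocampal microglia were examined as a gene family, chosen by symbol alone: Rab, a number, and at most 1 letter and 1 further digit. Of the 53700 genes in the count files 59 met this rule, so that regulators such as Rab3ip or Rabgef1 were not members. Poly-A RNA was sequenced from microglia sorted as CD45int CD11b+ cells from the hippocampus of 50 male C57BL/6J mice, with 1 library per mouse. Mice had been raised under control conditions (CTR) or under early-life stress (ELS), a nest with limited bedding and nesting material from P2 to P9. The groups were untreated pups, P9-CTR (n = 12) and P9-ELS (n = 13), and adults injected i.p. with PBS or with lipopolysaccharide (LPS, 1 mg/kg), a component of the bacterial outer membrane that microglia sense through Toll-like receptor signalling. The adults were P200-CTR-PBS with 7 mice and P200-CTR-LPS with 7, beside P200-ELS-PBS with 6 mice and P200-ELS-LPS with 5, and they were sacrificed 3 h after the injection. P9 and P200 mice were separate cohorts, and myelin was removed on a Percoll gradient from adult tissue only, so that age, cohort and isolation cannot be told apart.

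Rab proteins are small GTPases that give each membrane of the cell its identity. In the GTP-bound form they recruit motors, tethers and fusion factors, and guanine nucleotide exchange factors (GEFs) and GTPase-activating proteins (GAPs) switch them on and off. In a phagocyte the route of an ingested particle can be followed by its Rabs, with Rab5 on the early phagosome, Rab7 on the late phagosome that fuses with lysosomes, Rab11 and Rab4 on the way back to the surface, and Rab27 and Rab32 on lysosome-related organelles. Microglia use these routes to take up synaptic material and debris and to secrete cytokines.

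Libraries held 5152838 to 42231258 counts (median 19960409), and Rab genes took 0.338% to 0.503% of it. The fewest genes with a count above 0 were found in 3 mice, P9-ELS mouse 3 of nest 19 (12482 genes), P200-CTR-PBS mouse 1 of nest 1 (12854) and P9-ELS mouse 2 of nest 19 (15731), against a median of 18898 over all mice, and the main counts are given with and without them. Mice are named by the number before the point of their label, read as the nest, and the number after it. By this reading the P9-ELS mice came from 4 nests and those of each other group from 5. Each adult nest held both PBS and LPS mice. Litters had been assigned to CTR or ELS as a whole, so nest mates are not independent for that comparison. As the label of the cells says, microglial markers dominated: the 8 of them summed to 31060 to 76530 CPM per mouse. CPM are counts relative to the size of the library after TMM scaling between libraries. Sums were 2.54 to 161.6 CPM for 7 neuronal, 113.5 to 618.3 CPM for 5 astrocytic and 0.712 to 20.5 CPM for 7 monocyte and neutrophil markers. The 5 markers of border macrophages summed to 470.2 to 917.5 CPM in P9 mice and to at most 11.34 CPM in adults. Oligodendrocyte, oligodendrocyte precursor and endothelial markers each summed to at most 71.12 CPM. As the samples were bulk RNA, fewer cells of a type and less RNA per cell cannot be told apart.

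In adult control microglia the family was led by a few members. Levels of different genes were compared as CPM per kb of exon. In P200-CTR-PBS mice the highest level was that of Rab8b, which carries cargo to the cell surface (111.7 ± 15.8, SD, n = 7), followed by Rab1a, which acts between endoplasmic reticulum (ER) and Golgi (96.2 ± 4.06). Rab31 of the trans-Golgi and endosomes (54.8 ± 5.48), Rab7 (52.05 ± 8.18), Rab1b (50.4 ± 4.44) and Rab32 (46.6 ± 4.06) came next, and neighbours among these differed by less than 1 SD. The first 6 made up 55.6% of the summed level of all 59 members. The order depends on the length used: per kb of the longest transcript Rab1a was first (134.5 ± 5.67), Rab8b second (114.2 ± 16.1) and Rab14, at rank 7 per kb of exon, came next (99.4 ± 5.69). At the other end, 18 members had a mean under 1 CPM in this group, and Rab17, Rab25, Rab38 and Rab44 stayed below the threshold for testing (at least 1 CPM in more than 2 mice), with group means of at most 0.345 CPM. The remaining 55 members were tested, and all tests below were edgeR's quasi-likelihood test with Benjamini-Hochberg adjustment over all 16696 tested genes, a gene being called at an adjusted p under 0.05.

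**Figure D1:**
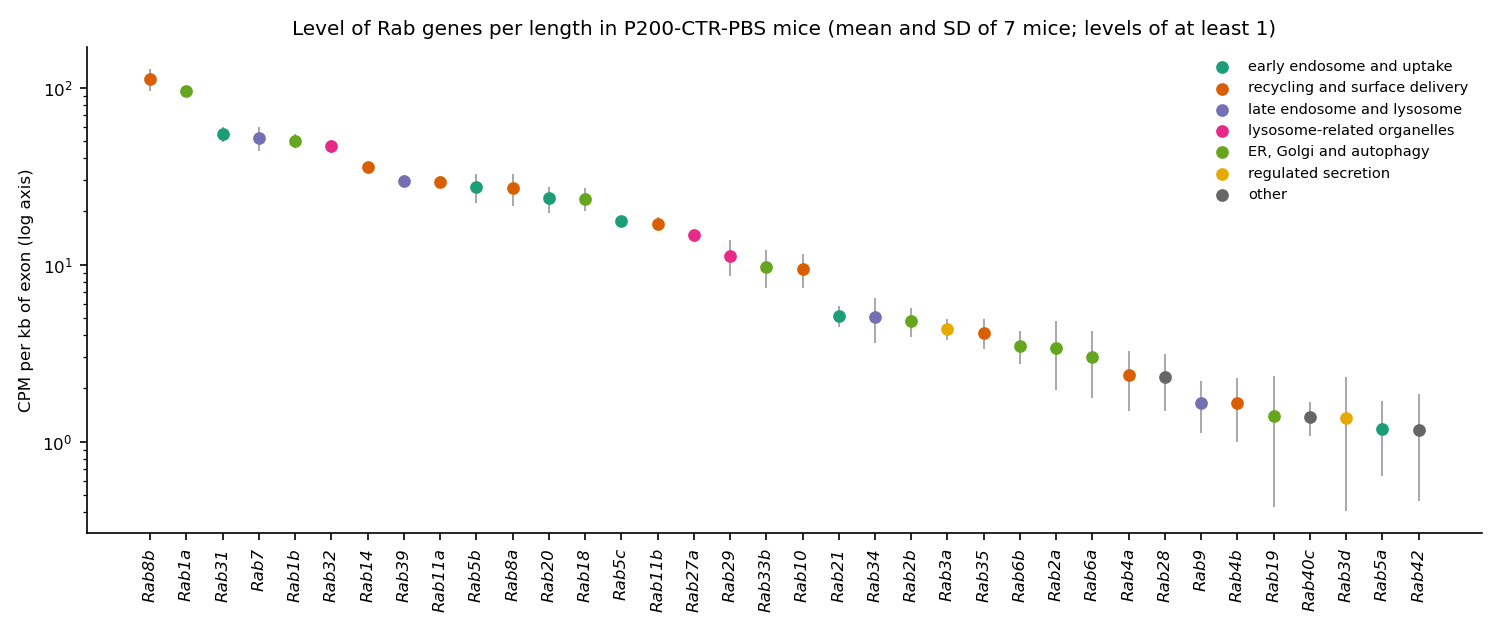
Level of Rab genes in P200-CTR-PBS microglia, in CPM per kb of exon on a log axis (points, mean; bars, SD of 7 mice; colour, role), for the 36 members with a mean of at least 1. Rab8b and Rab1a lie highest, at 111.7 and 96.2, and the members span about 2 orders of magnitude.

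After 3 h of LPS few members moved. In CTR mice 4 of the 55 were higher and 4 lower than after PBS (7.27% each), where 8.73% of all genes tested were higher and 6.2% lower. In ELS mice 4 were higher (7.27%; 7.4% of all genes) and 2 lower (3.64%; 4.94% of all genes). With a log2 fold change above 1 or below -1 as a further condition, 5 members remained in CTR (9.09%; 9.62% of all genes) and 4 in ELS (7.27%; 7.86% of all genes). These shares lay near or below those of all genes. Without the 3 mice with the fewest genes 12 members were called in CTR, 7 higher and 5 lower, and 9 in ELS, 7 higher and 2 lower, where 19.9% and 21.3% of all genes were called. These held every member called with all mice and added Rab18 and Rab4b in both conditions. None of the 3 mice was an adult ELS mouse, and all groups share the estimate of the spread. Rab20 and Rab27a were higher, and Rab39 and Rab40c lower, in both CTR and ELS mice, which share no animal. The summed microglial markers had medians of 75360 CPM in CTR-PBS, 64880 in CTR-LPS, 73060 in ELS-PBS and 67370 in ELS-LPS, and 2 of the 8 were called lower in each condition. The 5 astrocytic markers had medians of 334.0, 575.5, 396.0 and 529.2 CPM in the same order, and 1 of the 5 was called higher in each condition. The 7 monocyte and neutrophil markers summed to at most 20.5 CPM, with Ly6g at 0 in every group, and 1 of 3 tested was called higher in ELS. Of 3 markers of oligodendrocyte precursors 1 was called higher in ELS, and of 4 endothelial markers 1 in CTR. The part of these lists in the results was not tested.

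**Figure D2:**
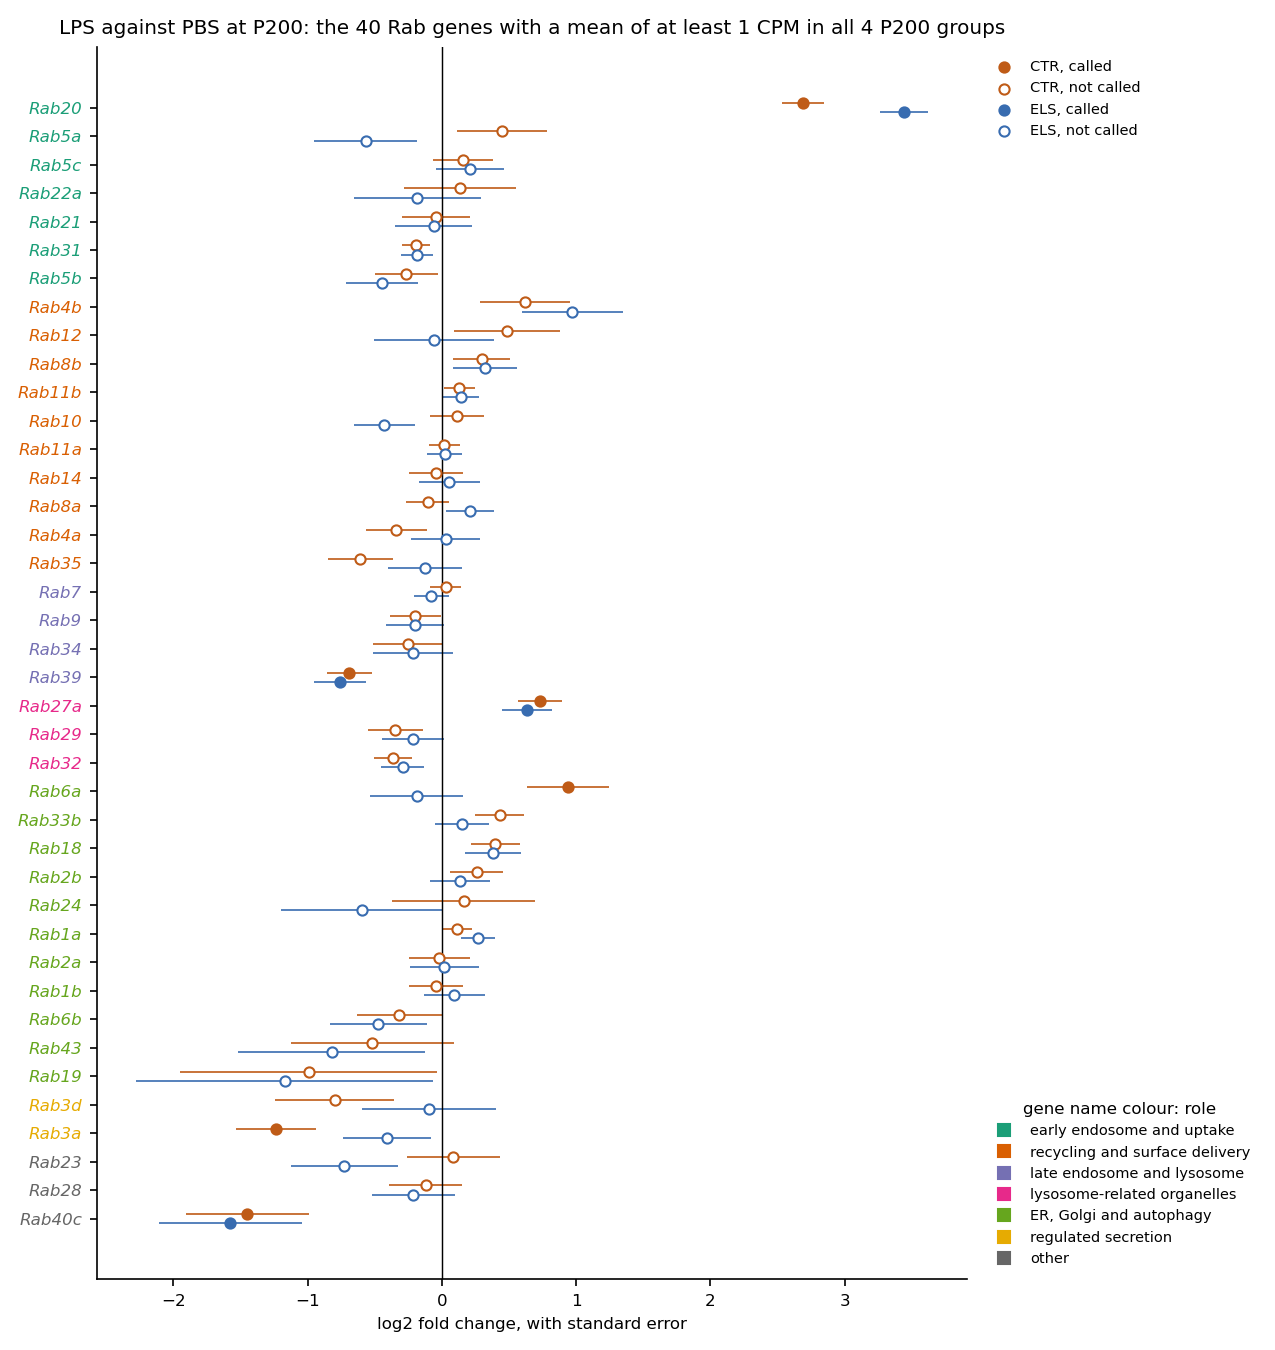
Log2 fold change of LPS against PBS at P200 with its standard error (x axis), for the 40 members with a mean of at least 1 CPM in all 4 adult groups, in CTR (orange) and ELS (blue) mice; filled points were called. Rab20 stands at 2.69 and 3.44, Rab40c at the other end at -1.45 and -1.58, and most members lie near 0.

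The 4 genes called in both conditions are shown with the 250 bases before the start of their canonical transcript (GRCm39, GENCODE M39, read 5′ to 3′ on the strand of the gene), since they moved with the same treatment in both. The windows are chr8:11528711-11528960 (minus strand) for Rab20, chr9:72951874-72952123 (plus strand) for Rab27a, chr9:53617552-53617801 (minus strand) for Rab39 and chr17:26138671-26138920 (minus strand) for Rab40c. Capitals mark matches, on either strand, to 4 short motifs: the NF-kB consensus, GAGGAAGT of ETS factors such as PU.1, TCACGTGA of the lysosomal gene network, and GAAANNGAA of interferon response elements.
Rab20: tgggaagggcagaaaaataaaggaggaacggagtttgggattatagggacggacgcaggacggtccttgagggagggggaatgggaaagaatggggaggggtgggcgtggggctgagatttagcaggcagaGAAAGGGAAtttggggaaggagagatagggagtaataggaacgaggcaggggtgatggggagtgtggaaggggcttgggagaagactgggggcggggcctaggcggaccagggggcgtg
Rab27a: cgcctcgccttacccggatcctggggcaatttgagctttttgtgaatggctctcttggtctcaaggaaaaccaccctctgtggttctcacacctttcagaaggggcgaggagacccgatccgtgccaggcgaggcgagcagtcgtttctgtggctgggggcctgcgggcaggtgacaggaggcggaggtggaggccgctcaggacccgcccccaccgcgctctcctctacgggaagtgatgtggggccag
Rab39: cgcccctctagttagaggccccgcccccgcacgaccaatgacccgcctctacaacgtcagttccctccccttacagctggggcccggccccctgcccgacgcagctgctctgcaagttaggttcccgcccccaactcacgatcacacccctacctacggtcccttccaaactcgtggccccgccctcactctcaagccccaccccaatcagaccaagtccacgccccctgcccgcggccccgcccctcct
Rab40c: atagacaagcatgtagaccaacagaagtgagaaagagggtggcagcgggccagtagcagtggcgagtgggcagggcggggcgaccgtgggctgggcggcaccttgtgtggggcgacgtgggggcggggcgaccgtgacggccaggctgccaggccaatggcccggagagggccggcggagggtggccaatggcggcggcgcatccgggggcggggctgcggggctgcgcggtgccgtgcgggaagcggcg
The one match among the 4 was GAAAGGGAA in Rab20, 119 to 111 bases before the start. GAAANNGAA occurred in 6.82% of the same windows of 13085 tested protein-coding genes, and in 2 of 55 Rab windows, those of Rab20 and Rab40b. The NF-kB consensus occurred in 8.28% of all windows (Rab11a and Rab1a among the members), GAGGAAGT in 2.16% (Rab2b) and TCACGTGA in 1.06% (Rab5a and Rab21). A match is a description of the letters, and no match says only that these letters are not in this window.

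Rab20 showed the clearest response. It is a phagosome and endosome Rab that macrophages use during phagosome maturation, at GRCm39 chr8:11503392-11528710. In CTR-PBS mice it measured 38.1 to 67.3 CPM with a median of 58.4, and in CTR-LPS mice 296.4 to 472.4 CPM with a median of 360.7. In ELS-PBS mice it measured 31.9 to 46.8 CPM (median 35.8), and in the 5 ELS-LPS mice 275.8, 411.2, 418.9, 451.4 and 497.5 CPM. Every LPS mouse was above every PBS mouse in both conditions. The log2 fold change was 2.69 (SE 0.155, adjusted p = 1.07e-19) in CTR and 3.44 (SE 0.176, adjusted p = 1.75e-21) in ELS, 6.45-fold and 10.9-fold. Per kb of exon Rab20 went from rank 12 of the family in CTR-PBS mice (23.7 ± 3.98, n = 7) to rank 1 in CTR-LPS mice (152.9 ± 29.5, n = 7), and from 3.20% to 17.23% of the summed level of the family. In ELS mice it went from 2.196% (rank 15) to 18.9% (rank 1). An antisense gene, E230013L22Rik, shares 845 of the 2394 exon bases of Rab20 and rose by log2 2.78 (adjusted p = 2.65e-14) in CTR mice and 3.42 (adjusted p = 1.88e-15) in ELS mice, at group means of 15.9 ± 2.57 and 109.2 ± 19.11 CPM in CTR-PBS and CTR-LPS mice (SD, n = 7 each). The strand setting of the counting is not given in the sources used here, so reads of the pair cannot be told apart in the shared bases.

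Rab27a, which docks lysosome-related organelles and secretory granules at the plasma membrane, rose by less. It measured 64.9 to 74.9 CPM (median 70.6) in CTR-PBS and 86.4 to 144.1 CPM (median 110.2) in CTR-LPS mice, without overlap, at a log2 fold change of 0.73 (SE 0.165, adjusted p = 0.000999). ELS-PBS mice had 56.2 to 79.0 CPM (median 62.1). The 5 ELS-LPS mice had 39.6, 98.2, 100.1, 107.2 and 167.8 CPM, so that 4 of 5 were above every ELS-PBS mouse and mouse 2 of nest 11 was below. The log2 fold change was 0.63 (SE 0.186, adjusted p = 0.0161), and 0.38 (adjusted p = 0.191) without the highest, mouse 2 of nest 2. In a fit of the 2 ELS groups alone, and with voom with a random term for nest, the call in ELS was lost.

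Rab39, a late endosome Rab that takes part in phagosome acidification, fell. CTR-PBS mice had 82.9 to 107.6 CPM (median 90.1) and CTR-LPS mice 45.2 to 69.4 CPM (median 56.3), again without overlap, and the log2 fold change was -0.69 (SE 0.17, adjusted p = 0.00262). ELS-PBS mice had 66.1 to 88.2 CPM (median 73.3), and ELS-LPS mice 33.1, 36.6, 40.3, 42.9 and 71.0 CPM. Of these only mouse 2 of nest 4, at 71.0 CPM, reached the range of the PBS mice, and the log2 fold change was -0.76 (SE 0.194, adjusted p = 0.00473).

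Rab40c, an atypical Rab with a SOCS box that joins a ubiquitin ligase, fell at a lower level of expression. It measured 5.74 to 10.9 CPM (median 7.24) in CTR-PBS and 0.437 to 5.16 CPM (median 2.36) in CTR-LPS mice, without overlap. ELS-PBS mice had 6.43 to 13.5 CPM (median 7.35), and ELS-LPS mice 1.18, 1.37, 1.58, 3.22 and 6.64 CPM, where the highest, mouse 3 of nest 17, reached the PBS range. The log2 fold change was -1.45 (SE 0.46, adjusted p = 0.0238) in CTR and -1.58 (SE 0.531, adjusted p = 0.0407) in ELS. Both calls were close to the threshold. In CTR the call was lost without mouse 3 of nest 1, mouse 3 of nest 5, mouse 1 of nest 18 or mouse 3 of nest 18 (adjusted p = 0.0507 to 0.0565), and in ELS without mouse 1 of nest 2, mouse 2 of nest 2, mouse 2 of nest 4, mouse 2 of nest 11, mouse 1 of nest 20 or mouse 2 of nest 20 (adjusted p = 0.0581 to 0.118) or without a filter on low counts (adjusted p = 0.0882).

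Rab3a and Rab42 were called lower in CTR mice. Of the 6 tested members of regulated secretion, Rab3a fell and Rab26 rose there, where 8.73% of all genes were higher and 6.2% lower. Rab3a, which primes vesicles for exocytosis, had 10.7 to 15.5 CPM (median 12.7) in CTR-PBS and 3.00 to 12.0 CPM (median 4.14) in CTR-LPS mice, with a log2 fold change of -1.24 (SE 0.296, adjusted p = 0.00196). Of the CTR-LPS mice, mouse 3 of nest 18 overlapped the PBS range, and with counts summed per nest the call was lost (adjusted p = 0.0524). In ELS mice it went from 12.9 to 17.25 CPM (median 15.3) after PBS to 1.81, 7.80, 9.52, 11.4 and 26.3 CPM after LPS, a log2 fold change of -0.41 (SE 0.33, adjusted p = 0.491). Without mouse 2 of nest 11, the one at 26.3 CPM, the value in ELS was -0.98 (adjusted p = 0.0381). Rab42 had 1.13 to 6.21 CPM (median 2.55) in CTR-PBS and 0 to 1.17 CPM (median 0.419) in CTR-LPS mice, at a log2 fold change of -2.41 (SE 0.504, adjusted p = 0.000344). In ELS mice the medians were 1.36 after PBS and 0.933 after LPS, with -0.65 (SE 0.545, adjusted p = 0.508).

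**Figure D3:**
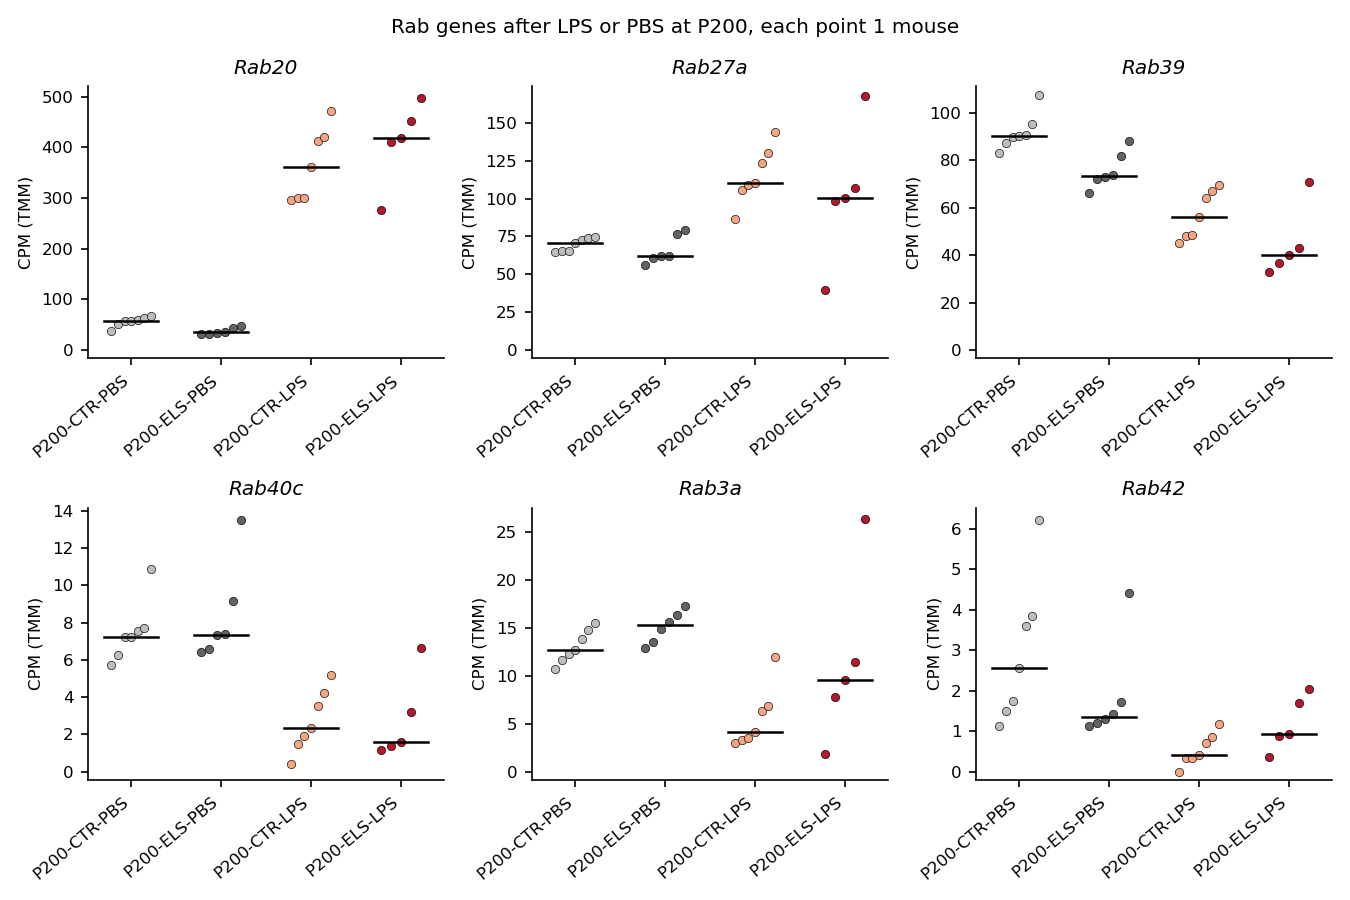
CPM (y axis, from 0) of 6 Rab genes in the 4 adult groups; each point is 1 mouse and the line is the median. Rab20 lies at 31.9 to 67.3 CPM in PBS mice and at 275.8 to 497.5 CPM in LPS mice, while in the other panels the LPS groups lie closer to, or overlap, the PBS groups, and ELS-LPS mouse 2 of nest 11 lies below the PBS mice for Rab27a (39.6 CPM) and above them for Rab3a (26.3 CPM).

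The other calls were made in 1 condition each. Rab6a, a Golgi Rab, measured 3.10 to 21.5 CPM (median 15.5) in CTR-PBS and 12.5 to 35.0 CPM (median 28.0) in CTR-LPS mice, with a log2 fold change of 0.94 (SE 0.307, adjusted p = 0.029). The call was lost without mouse 1 of nest 1, mouse 2 of nest 1, mouse 3 of nest 1, mouse 1 of nest 8 or mouse 3 of nest 8 (adjusted p = 0.0524 to 0.0711), with counts summed per nest (adjusted p = 0.0872) and in a fit of the CTR groups alone (adjusted p = 0.0513). In ELS mice the change was -0.19 (SE 0.344, adjusted p = 0.797). Rab26, a secretory granule Rab, had 0 to 3 reads in CTR-PBS and 3 to 22 reads in CTR-LPS mice (adjusted p = 0.018).

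Rab37, a Rab of secretory granules, was called higher in ELS mice (adjusted p = 0.0228). The 6 ELS-PBS mice held 1 read together, and the ELS-LPS mice 0, 3, 11, 18 and 20 reads (0 to 1.17 CPM), a ratio of 96.9 with an exact 95% interval of 16.6 to 3900 that covers counting error only. In CTR mice Rab37 had 8 reads in PBS mouse 2 of nest 18 and none in the other 6, and 0 to 42 reads after LPS, with a log2 fold change of 3.68 (SE 1.40, adjusted p = 0.0673). Without mouse 2 of nest 18 this was called too (adjusted p = 0.0102). Rab37 overlaps the gene Cd300lf on the opposite strand, with no shared exon base, and Cd300lf went from 1.64 ± 1.53 to 125.7 ± 22.1 CPM in CTR (SD, n = 7 each) and from 1.78 ± 1.16 (n = 6) to 102.0 ± 19.9 CPM (n = 5) in ELS; its part in the reads of Rab37 was not tested. Rab9b, a paralogue of the late endosome Rab9, was called in ELS mice (adjusted p = 0.0486). The call rested on 22 reads in mouse 2 of nest 4, with no read in any other adult mouse. By the limit of 3 reads over the group it was at least 13.7-fold higher than after PBS, a bound that covers counting error only. Without that mouse there was no read to compare, and without any 1 of the 6 ELS-PBS mice the call was lost (adjusted p = 0.0746 to 0.0812), as it was without a filter (adjusted p = 0.0641) and with voom (adjusted p = 0.507).

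Apart from Rab27a, the textbook Rabs of the phagosome route, Rab5a, Rab7, Rab11a, Rab14 and Rab32, were not called after LPS in either condition. The 4 P200 group means were 330.1 to 355.4 CPM for Rab7, and its log2 fold change was 0.03 (SE 0.115) in CTR and -0.08 (SE 0.13) in ELS. Rab11a of the recycling endosome stood at 0.02 in both (SE 0.113 and 0.128). Rab14, which acts between Golgi, endosomes and phagosomes, stood at -0.04 (SE 0.201) and 0.05 (SE 0.228). Rab5a was lower expressed, with 0.916 to 11.17 CPM in CTR-PBS and 8.08 to 14.8 CPM in CTR-LPS mice, and stood at 0.45 (SE 0.335) in CTR and -0.57 (SE 0.382) in ELS. Rab32 stood at -0.36 (SE 0.141, adjusted p = 0.073) in CTR and -0.29 (SE 0.16, adjusted p = 0.263) in ELS. Without CTR-LPS mouse 3 of nest 18 it was called in CTR (-0.42, adjusted p = 0.0468), as it was without the 3 mice with the fewest genes. Of the 12 tested members of recycling and surface delivery none was called in either condition with all mice, with medians of 0.07 in CTR and 0.02 in ELS. Rab4b of this list was called in both conditions without the 3 mice with the fewest genes. Its means with all mice were 1.652 CPM per kb of exon in CTR-PBS and 2.541 in CTR-LPS mice. In ELS-PBS and ELS-LPS mice they were 1.415 and 2.779. Rab8b, the highest member after PBS, stood at 0.32 (SE 0.24, adjusted p = 0.447) in ELS, and without mouse 2 of nest 11, which had 111.3 CPM against 807.9 at the median of its group, it was called (0.60, adjusted p = 0.0111).

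Whether ELS altered the response was asked by the difference of the 2 log2 fold changes. None of the 55 members was called, and 0.0% of all genes were, while 5 members and 980 genes had an unadjusted p under 0.05. The smallest unadjusted p belonged to Rab20, with a response larger by 0.75 (SE 0.22) in ELS (p = 0.00125, adjusted p = 0.308), and to Rab3c, a Rab of secretory vesicles, with -4.22 (SE 1.32, adjusted p = 0.384) at group means of at most 0.486 CPM in adults. For Rab20 the log2 fold change of ELS against CTR was -0.59 after PBS and 0.17 after LPS, and neither was called. The calls made in 1 condition are thus not shown to differ between CTR and ELS mice.

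Between ELS and CTR mice 1 member differed at P200 after PBS (1.82% of the members; 0.168% of all genes). Rab6a had 3.10 to 21.5 CPM in CTR-PBS mice, as given above, and 19.8 to 62.2 CPM (median 36.8) in ELS-PBS mice. The ranges overlapped by CTR mouse 1 of nest 15 and ELS mouse 2 of nest 17, and the log2 fold change was 1.47 (SE 0.319, adjusted p = 0.0466). The lowest CTR-PBS value was that of mouse 1 of nest 1, 1 of the 3 with the fewest genes. Without these 3 the value was 1.29 (adjusted p = 0.0386), while without mouse 1 of nest 1 alone it was 1.29 (adjusted p = 0.103). The other 2 were P9-ELS pups, which lie outside this comparison. Of 25 fits that each left out 1 adult mouse, 12 kept the call. It was lost without CTR-PBS mouse 1 of nest 1, mouse 1 of nest 5, mouse 2 of nest 5, mouse 1 of nest 8, mouse 1 of nest 18 or mouse 2 of nest 18, ELS-PBS mouse 1 of nest 2, mouse 1 of nest 4, mouse 1 of nest 17 or mouse 2 of nest 20, CTR-LPS mouse 3 of nest 1 or mouse 3 of nest 18, or ELS-LPS mouse 3 of nest 17 (adjusted p = 0.0501 to 0.118). It was also lost with DESeq2 size factors, other filters, the compared groups alone, counts summed per nest and voom with nest (adjusted p = 0.0512 to 0.217). Of the 5 astrocytic markers 1 was called lower in ELS-PBS mice, and its part in the result was not tested. Mrpl48, on the opposite strand, shares 736 of the 4710 exon bases of Rab6a and stood at 0.20 (adjusted p = 0.878). Rab20 was next, lower in ELS-PBS mice by a log2 fold change of -0.59 (SE 0.154, adjusted p = 0.0766). It was called with edgeR's likelihood-ratio test, with DESeq2 and without mouse 1 of nest 15 (adjusted p = 0.0177 to 0.027).

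In the other comparisons of ELS with CTR no member was called. At P9, where 0.0% of all genes were called and 5 members and 914 genes had an unadjusted p under 0.05, the smallest p belonged to Rab32 (0.26, SE 0.106, adjusted p = 0.897) and to Rab8a, a Rab of surface delivery (0.28, SE 0.121, adjusted p = 0.907). P9-ELS mouse 2 of nest 19 held the highest value of both, 378.8 CPM for Rab32 and 469.5 CPM for Rab8a, against medians of 179.5 and 175.0 CPM. After LPS at P200, where again 0.0% of all genes were called and 4 members and 798 genes had an unadjusted p under 0.05, the smallest p belonged to Rab3c (-4.01, SE 1.07, adjusted p = 0.641) and Rab3a (1.03, SE 0.318, adjusted p = 0.707). By DESeq2 no member was called in these comparisons either, or in the differences between conditions.

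Between P9 and P200 a larger share of the family differed. In CTR mice 11 members were higher in adult PBS mice (20.0%; 17.4% of all genes) and 16 lower (29.1%; 26.6% of all genes). In ELS mice 9 were higher (16.4%; 17.15% of all genes) and 13 lower (23.6%; 25.0% of all genes). With the condition on the fold change 15 remained in CTR (27.3%; 26.4% of all genes) and 12 in ELS (21.8%; 26.2% of all genes). The members thus followed the share of all genes. Without the 3 mice with the fewest genes 28 were called in each condition, 26 and 22 of them also with all mice, where 50.1% of all genes were called in CTR and 48.3% in ELS. Both conditions called 7 members higher and 12 lower, and the PBS mice of these comparisons are the controls of the LPS comparisons. The difference in age change between ELS and CTR was called for no member (0.0299% of all genes), with 10 members and 1712 genes at an unadjusted p under 0.05. The smallest p belonged to Rab6a (1.45, SE 0.389, adjusted p = 0.25) and Rab20 (-0.63, SE 0.189, adjusted p = 0.26).

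Other cell types moved with age in these samples. The 7 neuronal markers summed to 58.7 to 161.6 CPM in P9-CTR and 2.54 to 11.9 CPM in CTR-PBS mice, and to 23.1 to 126.4 and 4.13 to 9.76 CPM in the ELS groups; all 7 were called lower in CTR and 5 in ELS. The 5 markers of border macrophages summed to 537.2 to 917.5 CPM in P9-CTR and 2.84 to 10.6 CPM in CTR-PBS mice, and to 470.2 to 902.8 and 4.15 to 6.08 CPM in the ELS groups, and 5 and 4 were called lower. Of the 5 astrocytic markers 4 were called lower and 1 higher in each condition, and of the 3 markers of oligodendrocyte precursors 3 were lower in CTR and 2 in ELS. None of the markers named so far in this paragraph was at 0 in all mice of a group compared. Of the 4 endothelial markers 1 was called higher and 2 lower in each condition, and Cldn5 was at 0 in all P200-ELS-PBS mice. Of the 5 oligodendrocyte markers 2 were called higher in each condition and 1 lower in CTR. Of 3 tested monocyte and neutrophil markers 1 was called higher and 1 lower in each condition. The 8 microglial markers had medians of 44800 and 46130 CPM at P9 against 75360 and 73060 CPM in adults, with 6 and 5 called higher. The part of these lists in the age results was not tested.

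Members of uptake and of the lysosomal route moved both ways with age. Of 7 tested members of the early endosome 3 were higher and 2 lower in CTR, and 2 higher and 2 lower in ELS. Of 6 of the late endosome and lysosome 1 was higher and 3 lower in CTR, and 2 higher and 3 lower in ELS. Of all genes 17.4% were higher and 26.6% lower in CTR, and 17.15% and 25.0% in ELS. Rab20 had 23.7 to 31.7 CPM (median 27.1) in P9-CTR mice, all below the adult CTR range given above, with a log2 fold change of 1.05 (SE 0.128, adjusted p = 2.17e-09). In ELS it had 17.9 to 39.8 CPM (median 26.5) at P9, which overlapped the adults, and 0.42 (SE 0.133, adjusted p = 0.00947), a call lost with counts summed per nest (adjusted p = 0.116) and in a fit of the compared groups alone (adjusted p = 0.0626). Rab39 went from 33.2 to 53.9 CPM (median 41.3) at P9 in CTR to the adult range without overlap (1.12, SE 0.147, adjusted p = 1.36e-08), and in ELS by 0.59 (SE 0.152, adjusted p = 0.0014), also without overlap. Rab29, which recruits the kinase LRRK2 to membranes, had 14.6 to 23.5 CPM (median 18.7) in P9-CTR and 27.2 to 49.6 CPM (median 33.0) in CTR-PBS mice (0.89, SE 0.178, adjusted p = 5.36e-05), and 0.59 (SE 0.184, adjusted p = 0.00756) in ELS, where the call was lost with counts summed per nest (adjusted p = 0.16).

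Rab5b, 1 of the 3 Rab5 isoforms, was higher by 0.64 (SE 0.204, adjusted p = 0.00859) in CTR and 0.76 (SE 0.209, adjusted p = 0.00273) in ELS, while its isoform Rab5c was lower by a log2 fold change of -0.96 (SE 0.206, adjusted p = 0.000162) and -0.81 (SE 0.214, adjusted p = 0.00184). In CPM, Rab5b went from a median of 84.4 in P9-CTR to 132.9 in CTR-PBS mice, and Rab5c from 192.5 to 94.8. Rab21, which takes up integrins, was higher in CTR (0.72, SE 0.222, adjusted p = 0.00698). Rab8b was higher by 0.66 (SE 0.186, adjusted p = 0.00303) and 0.62 (SE 0.192, adjusted p = 0.0072). With counts summed per nest both calls of Rab8b were lost (adjusted p = 0.135 and 0.208).

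Among the ER and Golgi members, Rab19 was listed at 0 in most P9 mice and had up to 1.15 CPM in P9-CTR, against 1.67 to 8.70 CPM (median 2.42) in CTR-PBS mice (4.59, SE 0.911, adjusted p = 4.74e-05). In ELS it had up to 1.28 CPM at P9 and 0.987 to 5.59 CPM in adults (4.203, SE 0.889, adjusted p = 0.000128). Rab6b, the Rab6 isoform best known from neurons, was higher by 0.76 (SE 0.275, adjusted p = 0.0208) and 1.26 (SE 0.28, adjusted p = 0.000242). Rab6a was lower in CTR alone (-1.32, SE 0.285, adjusted p = 0.00016), from 19.4 to 59.3 CPM at P9 (median 33.1). Rab33b, which binds the autophagy protein Atg16l1, was called in ELS alone (0.66, SE 0.162, adjusted p = 0.000771). Gm38160, on the opposite strand, shares 661 of the 3538 exon bases of Rab33b. Gm38160 stood at 0.24 (adjusted p = 0.519) in CTR and 0.85 (adjusted p = 0.0151) in ELS, and its part in the reads of Rab33b was not tested. Rab34, which positions lysosomes, was also called in ELS alone (0.73, SE 0.234, adjusted p = 0.00951). In a fit of the compared groups alone Rab34 was not called (adjusted p = 0.0558).

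**Figure D4:**
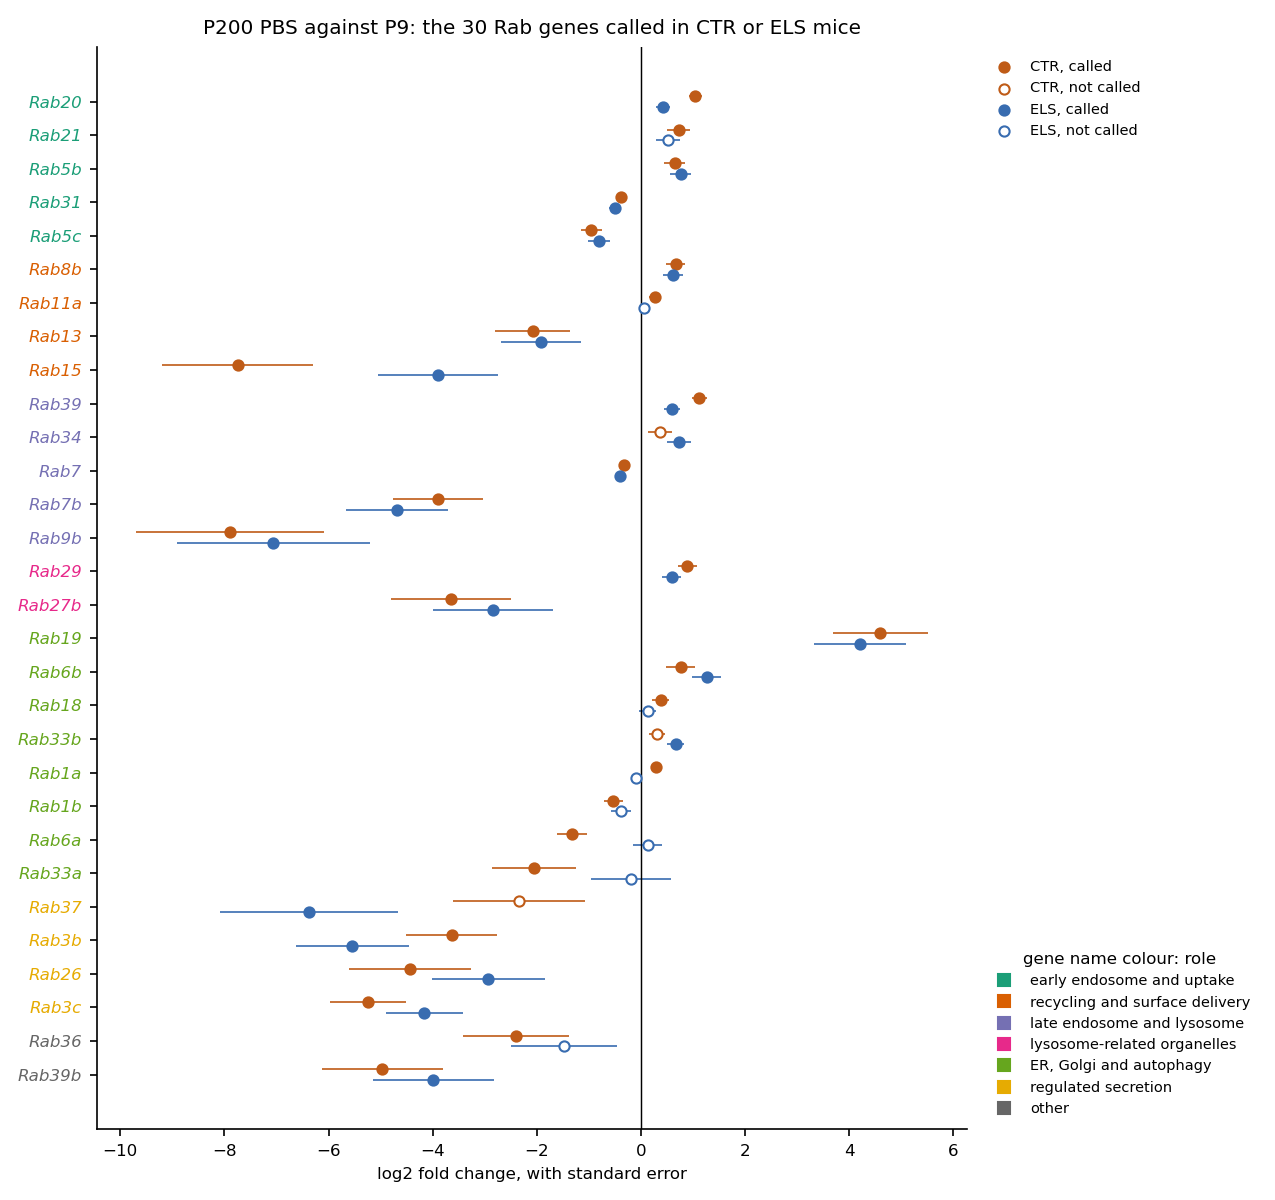
Log2 fold change of P200 PBS against P9 with its standard error (x axis) for the 30 members called in CTR (orange) or ELS (blue) mice; filled points were called, and name colours give the role. Falls of 2 or more are those of members with low adult levels, and the points of Rab9b, of Rab15 in CTR and of Rab37 in ELS depend on the prior count, since these groups held 0 or 1 read at P200.

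The largest falls were of members with hardly any reads in adults. Rab7b, a late endosome Rab that limits Toll-like receptor signalling in macrophages, had 5.21 to 10.9 CPM (median 7.84) in P9-CTR and 0 to 1.25 CPM (median 0.284) in CTR-PBS mice, without overlap (-3.90, SE 0.866, adjusted p = 0.000234). In ELS it went from 0 to 16.8 CPM (median 7.49) to 0 to 0.819 CPM (-4.68, SE 0.977, adjusted p = 0.000107). Its paralogue Rab7 was lower by far less, at -0.32 (SE 0.103, adjusted p = 0.00919) and -0.40 (SE 0.108, adjusted p = 0.00235). The medians of Rab7 went from 402.6 and 442.5 CPM at P9 to 324.5 and 357.9 CPM. Gm5577, on the opposite strand, shares 354 of the 6342 exon bases of Rab7. Gm5577 stood at -0.41 (adjusted p = 0.00608) in CTR and -0.50 (adjusted p = 0.00149) in ELS, and its part in the reads of Rab7 was not tested. Rab31 was lower by a log2 fold change of -0.39 (SE 0.0952, adjusted p = 0.000682) and -0.51 (SE 0.0998, adjusted p = 4.35e-05).

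Of the 6 members of regulated secretion 3 were lower in CTR and 4 in ELS, and none was higher. Of all genes 26.6% and 25.0% were lower, and 17.4% and 17.15% higher. Rab3c had 2.46 to 11.7 CPM (median 9.45) in P9-CTR and 0 to 0.512 CPM in CTR-PBS mice (-5.24, SE 0.731, adjusted p = 6.02e-08). In ELS it went from 0.121 to 7.75 CPM (median 4.50) to 0 to 0.517 CPM (-4.16, SE 0.737, adjusted p = 7.73e-06). Rab3b was at -3.63 (SE 0.878, adjusted p = 0.000664) in CTR and -5.54 (SE 1.08, adjusted p = 3.72e-05) in ELS. Rab37 was lower in ELS, with 196 reads in 13 pups and 1 read in 6 adults (adjusted p = 0.00207), and at P9 its values ranged from 0 to 8.42 CPM. The highest value was that of mouse 3 of nest 19, the mouse with the fewest genes. Without the 3 mice with the fewest genes no age call in ELS was lost. With voom and a random term for nest the call of Rab37 was lost (adjusted p = 0.0544).

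Rab15 and Rab9b had no read in any CTR-PBS mouse. Rab15, an endosomal recycling Rab, had 0.248 to 4.11 CPM in P9-CTR mice, at least 64.2-fold higher if the limit of 3 reads over the adult group is used, and for ELS mice the log2 value was -3.90 (SE 1.16, adjusted p = 0.00597). Rab9b was at least 70.6-fold higher at P9 in CTR and at least 44.8-fold in ELS by the same limit. These bounds, like that of Rab15, cover counting error only and not the spread between mice. Rab39b, a Rab linked to X-linked intellectual disability, was at -4.96 (SE 1.15, adjusted p = 0.000425) in CTR, from a median of 0.883 CPM at P9, and at -3.99 (SE 1.16, adjusted p = 0.00446) in ELS. Rab13, which serves junctions and recycling, was at -2.08 (SE 0.724, adjusted p = 0.0169) and -1.92 (SE 0.764, adjusted p = 0.0376); in ELS the call was lost without any 1 of PBS mouse 1 of nest 2, mouse 1 of nest 4, mouse 1 of nest 17, mouse 2 of nest 17 and mouse 2 of nest 20 (adjusted p = 0.0665 to 0.0871) and without a filter on low counts (adjusted p = 0.0606). With counts summed per nest the call of Rab13 was lost in CTR (adjusted p = 0.0538) and ELS (adjusted p = 0.182). Rab11a was slightly higher in CTR (0.26, SE 0.1, adjusted p = 0.0286), a call lost without mouse 1 of nest 1, mouse 2 of nest 5 or mouse 1 of nest 18 (adjusted p = 0.0518 to 0.066) and with counts summed per nest (adjusted p = 0.137).

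**Figure D5:**
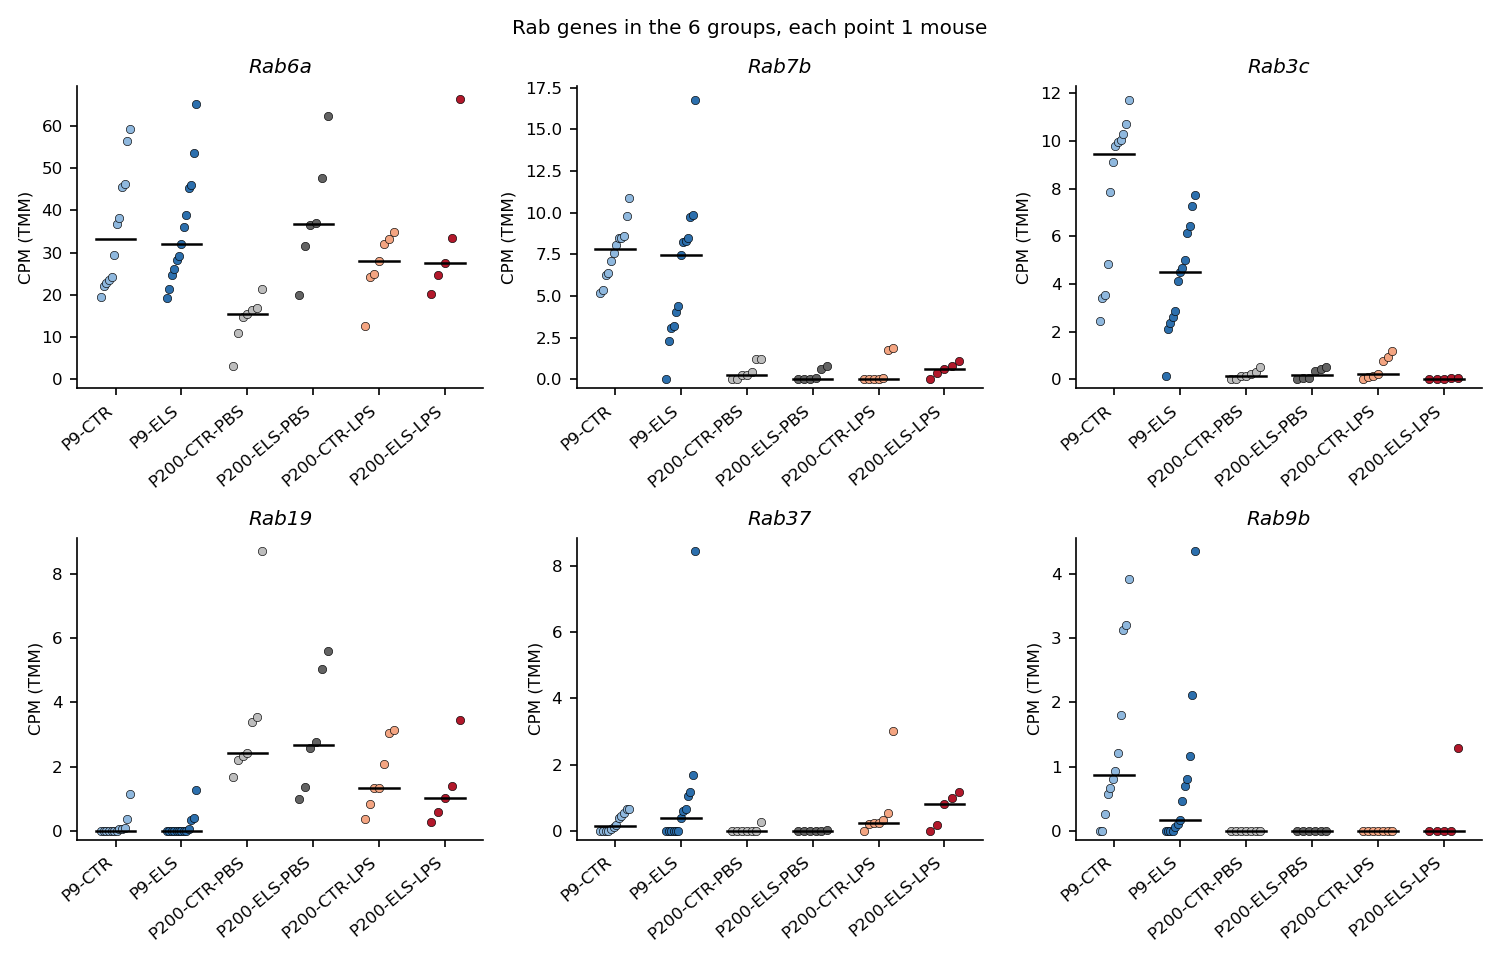
CPM (y axis, from 0) of 6 Rab genes in all 6 groups; each point is 1 mouse and the line is the median. Rab7b, Rab3c and Rab9b are near 0 in all adult groups, Rab19 is highest in adult PBS mice, and Rab6a is lowest in P200-CTR-PBS, where its median is 15.5 CPM.

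The partners of Rab proteins were described by a list of 120 regulators and effectors, of which 107 were tested. After LPS 9 were higher and 6 lower in CTR mice, and 6 higher and 8 lower in ELS mice, where 8.73% of all genes were higher and 6.2% lower in CTR, and 7.4% and 4.94% in ELS. Of the factors that prenylate and escort Rabs, Rabggtb, the catalytic subunit of the Rab prenyltransferase, was higher by 0.82 in CTR (SE 0.241, adjusted p = 0.014) and 0.86 in ELS (SE 0.271, adjusted p = 0.0274). Gdi2, which keeps GDP-bound Rabs soluble, was lower by -0.46 (SE 0.0933, adjusted p = 0.000245) and -0.38 (SE 0.106, adjusted p = 0.01). Among 32 tested GEFs 3 were higher and 4 lower in CTR, and 2 higher and 6 lower in ELS. Dennd6a, a GEF of Rab14, went from 72.9 to 96.2 CPM in CTR-PBS to 12.1 to 22.2 CPM in CTR-LPS mice (-2.10, SE 0.194, adjusted p = 1.92e-12) and by -2.30 (SE 0.226, adjusted p = 1.98e-11) in ELS, while Rab14 was not called. Dennd4b was higher in CTR (1.59, SE 0.411, adjusted p = 0.00438) and not called in ELS (0.58, SE 0.453, adjusted p = 0.468). Rab3ip, a GEF of Rab8, was lower in ELS (-1.69, SE 0.47, adjusted p = 0.0106) and not called in CTR (-0.91, SE 0.401, adjusted p = 0.125).

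Among 31 GAPs 5 were higher in CTR and 2 in ELS, and none was lower. Of all genes 8.73% and 7.4% were higher, and 6.2% and 4.94% lower. Tbc1d14, which binds Rab11 in autophagy, was at 1.13 (SE 0.204, adjusted p = 3.38e-05) and 0.84 (SE 0.228, adjusted p = 0.00789). Tbc1d10a, a GAP of Rab27a and Rab35, was at 0.89 (SE 0.274, adjusted p = 0.0197) and 0.93 (SE 0.307, adjusted p = 0.0348). Tbc1d1 was at 1.65 (SE 0.429, adjusted p = 0.00458) in CTR and, not called, at 1.24 (SE 0.475, adjusted p = 0.0796) in ELS. Of 34 effectors and tethers Fyco1, which links Rab7 to kinesin, was lower by -1.40 (SE 0.227, adjusted p = 4.55e-06) and -1.54 (SE 0.262, adjusted p = 1.63e-05). Rab11fip1, an effector of Rab11, was called higher in ELS (adjusted p = 0.000779) from 0 to 0.0712 CPM after PBS to 0 to 8.24 CPM after LPS. In CTR Rab11fip1 was not called (1.71, SE 1.09, adjusted p = 0.334). The median log2 fold changes were 0.03 for the GEFs, 0.00 for the GAPs and -0.06 for the effectors in CTR, and -0.19, -0.27 and -0.17 in ELS, beside 0.00 and -0.04 for all genes tested. For the Rab genes themselves they were 0.00 and -0.18. With age 20 of the 107 regulators were higher and 16 lower in CTR, and 28 higher and 11 lower in ELS, where 17.4% and 26.6% of all genes were higher and lower in CTR, and 17.15% and 25.0% in ELS. No regulator was called between ELS and CTR mice, or in the difference of their LPS or age changes. In these comparisons edgeR called 0.0% to 0.168% of all genes.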

How the data were processed

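Counts were analysed as deposited: per the labels and the study's methods, the authors made FASTQ files with bcl2fastq 2.20, trimmed reads with cutadapt 2.10, aligned them to GRCm39 with STAR and counted uniquely mapped exonic reads per gene with HTSeq 0.11.0. The annotation release and the strand setting are not given in the sources used here, and uniquely mapped reads leave out bases shared between near-identical paralogues. Of 53700 genes, the 16696 that reached 1 CPM in more than 2 mice were tested in edgeR 4.0.16 (R 4.3.3) with TMM scaling, a quasi-likelihood fit of 6 group means and Benjamini-Hochberg adjustment over all of them. Groups were taken from the labels, and P9-ELS holds 13 mice there. The number before the point of a mouse's name was read as its nest, which the labels do not define, and p-values treat nest mates as separate. Fold bounds used 3 counts over a group at 0 and cover counting error only. Alternatives used the likelihood-ratio test, DESeq2 1.42.0, limma 3.58.1, other filters, nests and left-out mice. Exon lengths and promoters came from GENCODE M39 and GRCm39. Named members were 1 textbook Rab per route, Rab37, for each LPS or age comparison the 6 called members with the largest rise and the 6 with the largest fall among those with a group mean of at least 1 CPM, and members called between ELS and CTR or, where none was, the 2 with the smallest p. Of each regulator list the 2 called genes with the largest LPS change were named. Every other Rab gene in the text, such as Rab1a, Rab1b, Rab26, Rab31, Rab5c, Rab18, Rab4b, Rab2b and Rab40b, lies outside this rule and was named after its values were seen. The members, the lists and the rule were chosen with earlier results of these data known.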

Additional observations from a re-analysis of the deposited data

Results flagged for a closer look

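Pairs of a named Rab gene and an adult group of 5 to 7 mice were checked by Dixon's criterion. In 20 of 111 pairs a mouse stood apart from the others. Chance gives about 1 in 20 only for continuous values with a normal spread. Where all other mice of a group had no read, any read stands apart, so the share here cannot be set against that rate. The pairs are not independent, since the same mice recur.

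Several concerned genes with values above 1 CPM. For Rab8b, CTR-PBS mouse 1 of nest 18 had 739.1 CPM against 491.9 to 585.0 in the others, and the same mouse had 15.48 CPM of Rab6b against 25.46 to 31.86 and 10.85 CPM of Rab40c against 5.744 to 7.684. CTR-PBS mouse 1 of nest 1 had 8.702 CPM of Rab19 against 1.668 to 3.542. ELS-PBS mouse 1 of nest 2 had 4.4 CPM of Rab42 against 1.126 to 1.725, and mouse 1 of nest 11 had 1.551 CPM of Rab13 against 0.0402 to 0.427.

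After LPS, CTR mouse 3 of nest 18 had 11.95 CPM of Rab3a against 2.998 to 6.865, and mouse 3 of nest 5 had 3.004 CPM of Rab37 against 0 to 0.5399. Among ELS-LPS mice, mouse 2 of nest 11 had 43.89 CPM of Rab29 against 22.95 to 28.32, mouse 2 of nest 4 had 71.03 CPM of Rab39 against 33.14 to 42.87, and mouse 1 of nest 20 had 66.25 CPM of Rab6a against 20.15 to 33.33.

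The others were reads in a mouse of a group with few or none. ELS-LPS mouse 2 of nest 4 had 1.287 CPM of Rab9b, CTR-LPS mouse 2 of nest 15 had 0.9898 CPM of Rab39b, and CTR-LPS mouse 3 of nest 8 had 0.09743 CPM of Rab15. Rab37 had 0.2732 CPM in CTR-PBS mouse 2 of nest 18 and 0.03559 CPM in ELS-PBS mouse 1 of nest 4. Rab39b had 0.2135 CPM in ELS-PBS mouse 1 of nest 4 and 0.3709 CPM in ELS-LPS mouse 2 of nest 11, and Rab3b had 0.1779 CPM in ELS-PBS mouse 1 of nest 4 and 0.07378 CPM in ELS-LPS mouse 2 of nest 2.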

How the results depend on the processing

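Of 50 calls on named members, 34 were called under every alternative run for them (at most 11, the nest block for LPS alone) and in each of 25 fits that left out 1 adult mouse, and none changed direction. A log2 fold change above 1 or below -1 left 5 members for LPS in CTR, 15 for age in CTR and 12 for age in ELS. A fit of the ELS groups alone left 3 for LPS in ELS. For ELS against CTR after PBS, 2 members were called by the likelihood-ratio test and DESeq2, and 0 with DESeq2 size factors, no filter, filterByExpr, the compared groups alone, counts summed per nest or voom with nest. The cause was not tested. Leaving out 1 mouse gave 0 to 2 there, 6 to 9 for LPS in CTR, 4 to 7 for LPS in ELS, 23 to 27 for age in CTR and 19 to 23 for age in ELS. Members with few reads are limited by depth.

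With the nest number as a replicate block, 10 members were called for LPS in CTR, 8 in ELS and 0 for the difference. Of the named calls, Rab6a in CTR (adjusted p = 0.075) and Rab9b in ELS (adjusted p = 0.438) were lost under the block, and Rab37 in CTR was gained (adjusted p = 0.0481). Deviations of nest mates correlated at -0.0411 to 0.0841 over the nests, so the numbers were not taken to pair the mice.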
